A study of Mus musculus with 59 samples.

Results

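VH gene recombination was compared between pro-B cells of Igh P4V/P4V mice and of wild type Igh +/+ mice. The comparison rests on 6 libraries, 3 of each genotype, among 48 VDJ-seq libraries and 59 samples in the series. The 6 libraries were chosen by their genotype labels and carry consecutive experiment numbers, and they are called the P4V set here. Each library held genomic DNA of pro-B cells that were sorted by flow cytometry directly from bone marrow, so no culture step came between the mouse and the measurement. The labels give no replicate numbers, and p-values measure the spread between these libraries.

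The P4V allele was built in steps. Lox sites were first placed on the C57BL/6 Igh allele of an embryonic stem cell line of hybrid strain background, and in mice derived from these cells Cre recombinase then removed about 890 kb of the distal VH gene region, which gave the Δ890 allele. The removed stretch holds the PAIR elements. The P4V allele carries the same deletion and has at its junction an inserted module with PAIR4, the VH8-7 gene and the enhancer V8.7E, which normally lies downstream of VH8-7. In the module the spliced PAIR4 transcript is encoded as a cDNA followed by polyadenylation sites. The P4 allele carries the deletion and PAIR4 but neither VH8-7 nor V8.7E. The study states that its mutant strains were bred back onto C57BL/6. Both Igh alleles were altered in the P4V/P4V, P4/P4 and Δ890/Δ890 mice. Each inserted or deleted allele thus lacks the VH genes of the deletion, which the wild type controls have, and each allele goes back to a targeted stem cell line. The P4 libraries (n = 3) have experiment numbers that follow the P4V libraries, and the Δ890 libraries (n = 3) have their own 3 wild type controls in a separate set of consecutive numbers. These 9 further libraries are used to show where the P4V allele differed, and the 3 wild type controls among them also serve as added controls in an alternative.

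The heavy chain variable domain is assembled from a VH, a D and a JH gene segment by the RAG recombinase, with D joined to JH first and a VH gene joined to DJH second. RAG cuts at a recombination signal sequence (RSS) that flanks each segment and consists of a heptamer, a spacer and a nonamer. The mouse VH genes fall into families by sequence likeness, with the large VH1 family at the distal end of the locus and VH5 and VH2 genes at the proximal end near the D segments. In pro-B cells the locus contracts under the control of Pax5, which brings distal VH genes into the range of the RAG-bound recombination centre. PAIR elements are bound by Pax5, E2A and CTCF and give rise to noncoding antisense transcripts in the distal VH region, and V8.7E is an enhancer in the same region.

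The inserted module and its surroundings can be located by the oligonucleotides the study used. Genotyping oligonucleotides 1 and 3 lie on either side of the proximal edge of the deleted region and are shown because they place this edge. Oligonucleotide 1 lies in the retained flank. Oligonucleotide 3 lies on the deleted side, so its site is absent from the P4V allele and the distance between them holds for the undeleted allele. Oligonucleotide 1 maps to chr12:116237049-116237069 (mm9, plus strand) and oligonucleotide 3 to chr12:116237737-116237757 (minus strand), 709 bp from end to end.
junction oligonucleotide 1: ctgaggatcactgtcacacct
junction oligonucleotide 3: agaggaaaatgcaggccaaga
The oligonucleotide that primes inside the module has 2 exact matches in mm9, of which the one at chr12:116495988-116496006 (minus strand) lies 4.7 kb below the PAIR4 fragment amplified in the study, and the other is at chr12:116642276-116642294.
module oligonucleotide 2: gctgaagatgggaattact
The Pax5 binding site of PAIR4 is shown because it lies in the transplanted element. The 35-bp sequence has 4 exact matches in mm9, and the match at chr12:116500696-116500730 (plus strand) lies within the 310-bp PAIR4 fragment at chr12:116500668-116500977.
PAIR4 Pax5 site: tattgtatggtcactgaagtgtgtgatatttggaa

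The RSSs of VH genes on either side of the deletion are shown next, since the largest rises described below fell on genes above it. All are on the minus strand of mm9, 39 bases long, with the heptamer and the nonamer in capitals and the 23-bp spacer in lower case.
VH1-85, chr12:117238200-117238238: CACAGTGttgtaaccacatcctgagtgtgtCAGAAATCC
VH1-84, chr12:117218874-117218912: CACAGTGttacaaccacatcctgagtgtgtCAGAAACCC
VH1-83, chr12:117201989-117202027: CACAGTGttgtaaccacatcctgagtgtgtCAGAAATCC
VH1-82, chr12:117190710-117190748: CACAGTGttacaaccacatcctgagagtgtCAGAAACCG
VH1-81, chr12:117158451-117158489: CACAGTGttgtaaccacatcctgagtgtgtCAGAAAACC
VH1-43, chr12:116184122-116184160: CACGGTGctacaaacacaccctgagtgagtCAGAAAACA
VH1-42, chr12:116175285-116175323: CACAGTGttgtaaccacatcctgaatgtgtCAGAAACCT
Counted from 1 at the 5′ end of the heptamer and with VH1-85 first, VH1-81 differs from VH1-85 by T37A alone, and VH1-83 does not differ. VH1-84 differs by G10A, T11C and T37C, and VH1-82 by G10A, T11C, T26A, T37C and C39G. Below the deletion, VH1-42 differs from VH1-85 by G25A, T37C and C39T, and VH1-43 by 9 bases, one of them A4G in the heptamer. The 5 genes above the deletion and VH1-42 share the heptamer CACAGTG. VH1-81 and VH1-82 were located in mm9 by the oligonucleotide pairs of the study, and the other 5 by their annotated names.

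The value given for a VH gene is the percent of all joints, VDJH and DJH together, that use this gene. The sum over all VH genes is therefore the percent of joints that are VDJH. Usage is given on 3 scales: as percent of all joints, as share of the summed VH percent (the VDJH repertoire), and as share of the VH genes outside the deletion (the retained VH genes). The last scale is needed because the P4V allele lacks the deleted genes: a gene whose share among the retained genes did not change rises by 0.35 on the log2 scale as share of the summed VH percent. The 239 VH names in the files include 183 with a position in the RefSeq annotation of GRCm38. These were put into position blocks: 7 genes above the deletion (VH1-80 to VH1-86), 49 deleted genes (VH8-3 to VH1-79), 42 genes below the deletion (VH1-9 to VH1-47), 53 middle genes (VH7-1 to VH15-2) and 32 proximal genes (VH5-1 to VH5-19). The deleted genes span 885 kb of chromosome 12, from 115003418 to 115888389. VH1-80 begins 24 kb above this span and VH1-85 lies 111.6 kb above it, whereas VH1-47 lies 12 kb and VH5-1 1430.2 kb below it. Depth is unknown, since the files hold percents and no joint counts. The summed VH percent was 40.6, 37.5 and 52.8 in the wild type libraries and 35.1, 33.8 and 36.6 in the P4V libraries. The third wild type library stood apart from the other 5, and several groups overlapped only through it.

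The alleles were checked by the deleted genes. Without VH8-7, the 48 others took 8.50%, 7.72% and 11.7% of all joints in wild type and 0.165%, 0.188% and 0.180% in P4V/P4V pro-B cells. Of the 49 genes, 18 were used in all 3 wild type libraries and in no P4V library, and 11 were at 0 in all 6 libraries. The remaining usage was not even among genes. VH1-64 kept 0.0521%, 0.0730% and 0.0910% in the P4V libraries, VH1-69 kept 0.0357%, 0.0464% and 0.0363%, and VH1-56 kept 0.0270%, 0.0174% and 0.0197%. The same genes were above 0 in the other alleles with the deletion, with VH1-64 at a mean of 0.0540% in Δ890/Δ890 and 0.0576% in P4/P4 pro-B cells. VH1 genes of different names are near-identical in sequence, so joints may be given to the wrong name, and the part of such misassignment in these values was not tested. All VH8 genes of the deletion together, VH8-7 included, took 1.56%, 1.46% and 2.18% of joints in wild type and 0.225%, 0.212% and 0.183% in P4V/P4V. In the P4V libraries nearly all of this was VH8-7, the gene carried by the module, which RefSeq lists as a pseudogene segment.

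VH8-7 took 0.225%, 0.209% and 0.183% of all joints in P4V/P4V and 0.244%, 0.207% and 0.378% in wild type pro-B cells. The groups overlapped (exact permutation test, two-sided, p = 0.3), and without the third wild type library the P4V values lay within 0.183% to 0.225% against 0.207% and 0.244%. VH8-7 was at 0 in all 3 P4/P4 and all 3 Δ890/Δ890 libraries, neither of which carries the gene.

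**Figure D1:**
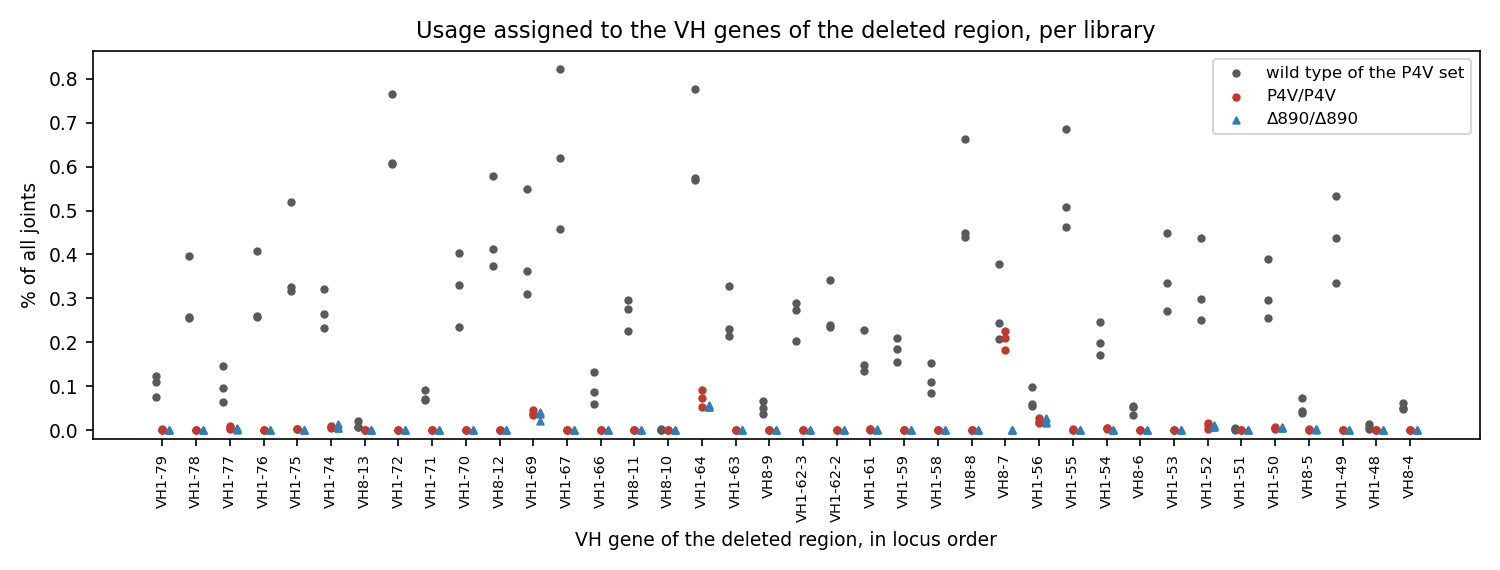
Usage of deleted VH genes as percent of all joints (y axis) for the deleted genes used in at least 1 library, in locus order (x axis), in wild type, P4V/P4V and Δ890/Δ890 pro-B cells. Each point is 1 library (n = 3 per genotype). VH8-7 stays between 0.183% and 0.225% in the P4V libraries, whereas VH1-64, the gene with the most remaining usage after VH8-7, is at most 0.0910% there.

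Among the blocks, the 7 genes above the deletion, which lie on the side of the insertion away from the D segments, showed the largest relative rise. They took 1.29%, 1.20% and 1.69% of all joints in wild type and 2.56%, 2.42% and 2.84% in P4V/P4V pro-B cells, a ratio of means of 1.87. The lowest P4V library stood above the highest wild type library. As share of the summed VH percent the block rose 2.31-fold, from 3.17%, 3.21% and 3.21% to 7.28%, 7.16% and 7.75%. Among the retained genes it went from 4.26%, 4.27% and 4.36% to 7.66%, 7.56% and 8.11%, a ratio of 1.81. Each of these comparisons gave an exact permutation p = 0.1, which is the smallest p that 3 against 3 libraries allow. With the 3 wild type libraries of the Δ890 set added to the controls, the ratio as percent of all joints was 1.90 (exact permutation p adjusted over the blocks = 0.0476). That test treats the wild type libraries of both sets as exchangeable, although all P4V libraries belong to 1 set.

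Below the insertion the block sums, as percent of all joints, overlapped between the genotypes. The 42 genes directly below took 6.26%, 5.94% and 8.18% of all joints in wild type and 6.84%, 6.5% and 7.24% in P4V/P4V, a ratio of 1.01. Without the third wild type library every P4V library was above both others, with a ratio of 1.12. Their share of the retained genes was 20.7%, 21.1% and 21.1% against 20.5%, 20.3% and 20.7%, a ratio of 0.979. The middle block took 12.1%, 11.1% and 16.6% of all joints in wild type and 13.9%, 14.2% and 15.7% in P4V/P4V. The overlap again came from the third wild type library alone, and the ratio was 1.10 with it and 1.26 without it. The middle block made up a larger part of the VDJH repertoire in the P4V libraries, 39.6%, 42.2% and 42.9% against 29.9%, 29.7% and 31.4% (ratio 1.37, exact permutation p = 0.1, adjusted p = 0.133). On the scale of the retained genes, with no deleted genes in the denominator, the ratio was 1.07 and the groups overlapped, with 40.1%, 39.5% and 42.7% in wild type and 41.7%, 44.5% and 44.9% in P4V/P4V. Here too the groups separated without the third wild type library, with a ratio of 1.097 (exact permutation p adjusted over the blocks = 0.267).

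The proximal block was lower among the retained genes. It made up 34.9%, 35.1% and 31.9% of them in wild type and 30.1%, 27.6% and 26.3% in P4V/P4V pro-B cells, a ratio of 0.824 with no overlap (exact permutation p = 0.1, adjusted p = 0.2). Relative to all joints it stood at 10.6%, 9.91% and 12.4% against 10.1%, 8.84% and 9.18%, where the groups overlapped (ratio 0.854, exact permutation p = 0.2). On the share of the summed VH percent the ratio was 1.05 and the groups overlapped. The direction of the ratio thus depended on the scale, and the groups separated on the retained scale alone.

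**Figure D2:**
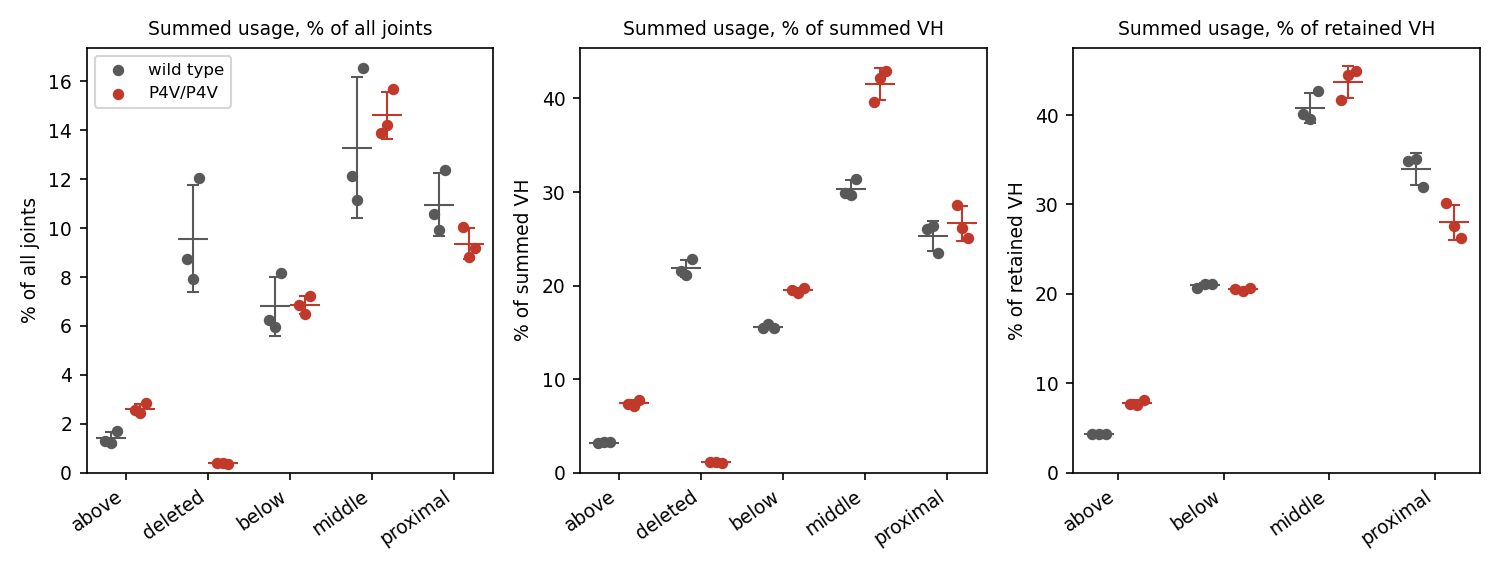
Summed usage of the position blocks in wild type and P4V/P4V pro-B cells, as percent of all joints, as share of the summed VH percent and as share of the retained VH genes (y axes, percent). The deleted block is shown except on the retained scale. Points are libraries (n = 3 per genotype) and bars show the mean ± SD. The block above the deletion is higher in every P4V library on all 3 scales, with ratios of 1.87, 2.31 and 1.81.

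Single genes were tested with limma on log2(usage + 0.01), with Benjamini-Hochberg adjustment over all VH genes outside the deletion that had a position and a mean of at least 0.01%. As percent of all joints, 14 of 89 genes (15.7%) passed the adjusted p threshold of 0.05, 11 higher (12.4%) and 3 lower (3.37%) in P4V/P4V. On this scale 14.6% of the tested genes were higher and 13.5% lower in all 3 P4V libraries than in all 3 wild type libraries. Among the retained genes, 33 of 95 (34.7%) passed, 17 higher (17.9%) and 16 lower (16.8%). As share of the summed VH percent, 40 of 92 (43.5%) passed, 37 higher (40.2%) and 3 lower (3.26%), and 20 of the 37 did not pass among the retained genes. The 14 genes that passed as percent of all joints passed on all 3 scales in 1 direction. No gene passed in opposite directions on different scales. On the scale of all joints the call count rests on few libraries: it was 3 without the first wild type library, 8 without the second and 23 without the third, and 3, 7 and 3 without the respective P4V libraries. VH1-81 and VH1-82 passed in each of these 6 fits. The same omissions gave 20 to 30 calls among the retained genes (21 without the second wild type library and 20 without the third P4V library), and 15 of the 33 genes passed in each of the 6 fits.

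**Figure D3:**
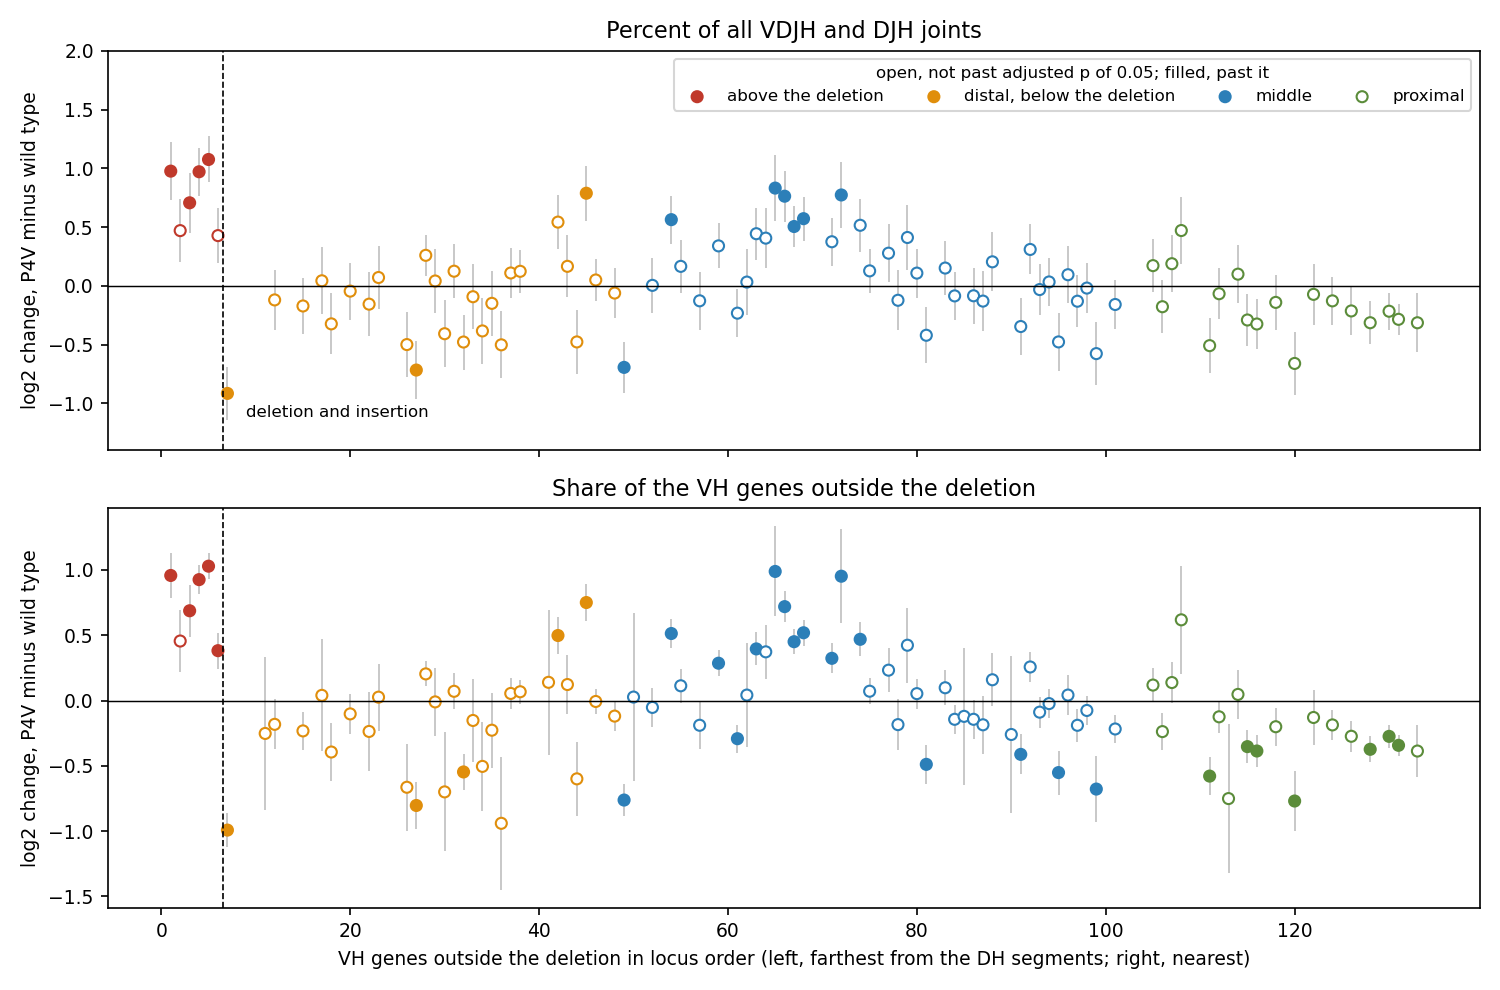
Log2 change in usage, P4V/P4V against wild type (y axis), for each tested VH gene in locus order (x axis), as percent of all joints and as share of the retained VH genes. Points are limma estimates with bars of ±1 SE (3 libraries per genotype), and filled points have an adjusted p under 0.05. The genes above the deletion have estimates between 0.43 and 1.07 as percent of all joints, against a median of −0.02 over all 89 genes.

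All 6 genes tested above the deletion had estimates above 0 as percent of all joints, and 4 of them passed, where 12.4% of all 89 tested genes were called higher. The median log2 change of the 6 genes was 0.84. VH1-81 rose most. It took 0.417%, 0.422% and 0.592% of all joints in wild type and 0.993%, 0.946% and 1.07% in P4V/P4V (log2 change 1.07, SE 0.20, adjusted p = 6.91e-06), with the lowest P4V library well above the highest wild type library. Among the VH genes outside the deletion, ordered by mean usage, it moved from rank 22 in wild type to rank 8. VH1-82 went from 0.398%, 0.316% and 0.451% to 0.724%, 0.730% and 0.840% (log2 change 0.97, SE 0.21, adjusted p = 0.00016) and from rank 31 to rank 12. VH1-85, the farthest gene in use above the insertion, went from 0.102%, 0.131% and 0.130% to 0.217%, 0.258% and 0.266% (log2 change 0.98, SE 0.25, adjusted p = 0.00216). VH1-85 did not pass without the first wild type library or without the third P4V library, and it passed in the other 4 fits that leave out a library. Its estimate was close to that of VH1-82.

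Of the other genes above the deletion, VH1-83 passed as percent of all joints. It was used in 0.105%, 0.0755% and 0.118% of joints in wild type and 0.181%, 0.122% and 0.207% in P4V/P4V (log2 change 0.71, adjusted p = 0.0408). This call was kept in 2 of the 6 fits that leave out a library, those without the third wild type or the second P4V library, and the call among the retained genes in 3. VH1-80, the gene nearest to the insertion on this side, had 0.213%, 0.199% and 0.333% in wild type and 0.337%, 0.294% and 0.357% in P4V/P4V, with groups that overlapped through the third wild type library (log2 change 0.43, adjusted p = 0.231, and 0.65 with adjusted p = 0.00283 without that library). As share of the retained genes VH1-80 passed at 0.38 (adjusted p = 0.0262), a call kept in 2 of the 6 fits that leave out a library. VH1-84, the least used of the 6 genes, had values of 0.0521%, 0.0606% and 0.0702% against 0.104%, 0.0677% and 0.0951%, with an overlap through the third wild type library alone, and passed only as share of the summed VH percent (log2 change 0.79, adjusted p = 0.00704). VH1-86 was at 0 in all 6 libraries.

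Of the 6 flanking genes directly below the insertion, 5 were tested as percent of all joints and 1 passed, a share near the 15.7% of all tested genes. VH1-47, the first gene below, fell from 0.424%, 0.389% and 0.520% of all joints to 0.209%, 0.203% and 0.283% (log2 change −0.92, SE 0.23, adjusted p = 0.00204), and the highest P4V library was below the lowest wild type library. The call was lost without the first P4V library and kept in the other 5 such fits. VH1-47 fell by 0.99 on the log2 scale among the retained genes (adjusted p = 4.88e-08). VH1-42 and VH1-39, the next used genes, had values near those of wild type. VH1-42 took 0.169%, 0.120% and 0.150% in wild type and 0.148%, 0.104% and 0.151% in P4V/P4V. VH1-39 took 0.292%, 0.236% and 0.315% against 0.281%, 0.212% and 0.251%, and neither gene passed on any scale. VH1-36 took 0.152%, 0.0718% and 0.145% against 0.0887%, 0.0929% and 0.0928%, and it did not pass. VH1-43 and VH1-37 were used in at most 0.0145% and 0.0231% of joints in any of the 6 libraries.

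**Figure D4:**
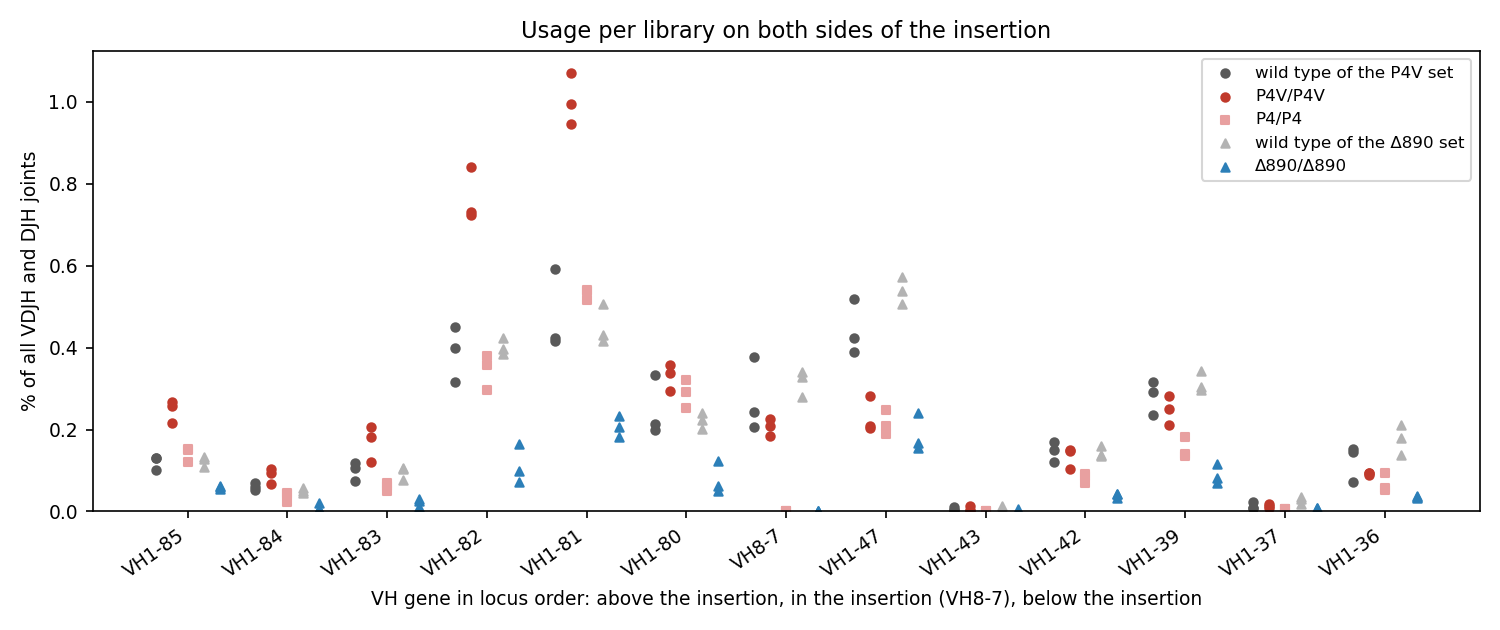
Usage of the VH genes flanking the insertion, as percent of all joints (y axis), in wild type and P4V/P4V pro-B cells of the P4V set, in P4/P4 pro-B cells, and in wild type and Δ890/Δ890 pro-B cells of the Δ890 set. Each point is 1 library (n = 3 per group). VH1-81 reaches 0.946% to 1.07% in the P4V libraries, against 0.517% to 0.541% in P4/P4 and 0.181% to 0.233% in Δ890/Δ890.

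Of 27 genes tested below the insertion as percent of all joints, 1 rose and 2 fell, where 12.4% of all tested genes rose and 3.37% fell. The median log2 change of the 27 genes was −0.09. VH1-27 fell with VH1-47, from 0.195%, 0.191% and 0.249% to 0.118%, 0.0992% and 0.162% (log2 change −0.72, adjusted p = 0.0346). VH1-27 passed on this scale in only 1 of the 6 fits that leave out a library, the one without the second wild type library, whereas among the retained genes (log2 change −0.80) it passed in all 6. VH1-12, near the proximal end of the block, rose from 0.188%, 0.186% and 0.242% to 0.362%, 0.284% and 0.449% (log2 change 0.79, adjusted p = 0.0121) and moved from rank 55 to rank 34. It was not called without the first wild type, the first P4V or the third P4V library on this scale, and among the retained genes it passed in all 6 fits. VH1-12 and VH1-27 moved the same way in P4/P4 against the same wild type. There VH1-12 rose by 1.02 (limma adjusted p = 8.03e-05) and VH1-27 fell by 1.18 (adjusted p = 6.51e-05) on the log2 scale. In that comparison 11 of 87 genes passed higher and 9 lower. In Δ890/Δ890 VH1-12 had rank 28, against 59 in its wild type, and VH1-27 rank 66 against 54. VH1-26, one of the 3 most used genes of the block with VH1-11 and VH1-18, took 0.905%, 0.856% and 1.17% in wild type and 1.08%, 1.30% and 1.12% in P4V/P4V, and the groups overlapped only through the third wild type library. VH1-26 passed only as share of the summed VH percent (0.56, adjusted p = 7.71e-06), as did VH1-11 and VH1-18. On the retained scale, 2 of 29 genes of the block rose, VH1-12 and VH1-15, and 3 fell, VH1-47, VH1-27 and VH1-22. Of all tested genes 17.9% rose and 16.8% fell on this scale. VH1-15 passed in 4 of the 6 fits that leave out a library, and VH1-22 in all 6. The 20 pseudogene segments of the block together took 0.434%, 0.445% and 0.588% of all joints in wild type and 0.375%, 0.299% and 0.381% in P4V/P4V, and the 22 other segments took 5.83%, 5.5% and 7.59% against 6.47%, 6.20% and 6.86%. The pseudogene sum did not overlap between genotypes, and the sum of the other segments overlapped through the third wild type library.

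In the middle block, which holds the small VH families, 6 of 38 genes rose and 1 fell as percent of all joints, shares near the 12.4% and 3.37% of all tested genes. VH6-3 showed the clearest rise, from 0.301%, 0.246% and 0.410% to 0.510%, 0.540% and 0.560% (log2 change 0.76, SE 0.22, adjusted p = 0.00931). VH12-3, a gene known for its use in B-1 cell receptors, took 0.918%, 0.797% and 1.05% in wild type and 1.16%, 1.29% and 1.48% in P4V/P4V (log2 change 0.50, adjusted p = 0.0346). It moved from rank 7 to rank 3. VH13-2 went from 0.568%, 0.638% and 0.877% to 0.971%, 0.963% and 1.13% (log2 change 0.57, adjusted p = 0.0276). VH10-3 took 0.402%, 0.394% and 0.589% against 0.624%, 0.686% and 0.718% (log2 change 0.56, adjusted p = 0.0408). For all 4 genes the lowest P4V library was above the highest wild type library. The remaining risers, VH6-4 (log2 change 0.83) and the pseudogene segment VH5-21 (log2 change 0.77), were used in under 0.04% of joints in each library. Each of these 6 genes passed, as percent of all joints, in only 1 of the 6 fits that leave out a library, the fit without the third wild type library. By contrast, VH6-3, VH10-3, VH12-3 and VH13-2 passed in all 6 such fits among the retained genes, and VH6-4 and VH5-21 in 3. VH3-6, also among the 3 most used genes of the block, took 0.721%, 0.709% and 1.13% in wild type and 0.868%, 0.956% and 0.908% in P4V/P4V, with an overlap through the third wild type library alone, and passed only as share of the summed VH percent.

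VH15-2, the most distal gene of the middle block and the only VH15 gene tested, fell from 0.497%, 0.425% and 0.655% to 0.285%, 0.357% and 0.309% of all joints (log2 change −0.69, SE 0.22, adjusted p = 0.0201), and from rank 17 to rank 40. This call was lost without the first wild type, the first P4V or the third P4V library, and the call among the retained genes was kept in all 6 fits. Of 41 middle genes, 10 rose and 6 fell among the retained genes, where 17.9% of all tested genes rose and 16.8% fell. The share of falls was near that of all tested genes. The falls were VH15-2, VH8-2 and the 4 VH14 genes, VH14-1 to VH14-4, with log2 changes of −0.68 for VH14-1 and −0.41 for VH14-3 at the ends of their range. VH14-1 and VH14-3 passed in only 1 of the 6 fits that leave out a library, VH8-2 in 3, VH14-2 and VH14-4 in 5 and VH15-2 in 6. The rises on this scale added VH10-1, VH6-6, VH3-8 and VH9-4 to the 6 genes named above, with estimates of 0.29, 0.40, 0.32 and 0.47. VH9-4 passed in all 6 fits that leave out a library, VH6-6 in 3, and VH10-1 and VH3-8 in 2.

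No proximal gene passed as percent of all joints, where 3 of 18 had an unadjusted p under 0.05 in limma and the median log2 change was −0.20. On the retained scale 7 of 19 fell and none rose, with 8 at an unadjusted p under 0.05. Of all tested genes 16.8% fell and 17.9% rose there. VH5-2, known as VH81X and the VH gene most used in the locus, ranked first in every library of both genotypes. It took 3.46%, 3.33% and 3.89% of all joints in wild type and 3.28%, 2.59% and 2.90% in P4V/P4V, without overlap but without passing (log2 change −0.29, adjusted p = 0.138). Its share of the retained genes went from 11.4%, 11.8% and 10.01% to 9.84%, 8.11% and 8.29% (log2 change −0.34, adjusted p = 0.000944). VH2-2, second in rank in every library, had 1.71%, 1.64% and 2.001% of joints in wild type and 1.74%, 1.35% and 1.505% in P4V/P4V. VH2-2 fell among the retained genes by 0.27 on the log2 scale (adjusted p = 0.0137). VH5-4 moved from rank 3 to rank 11 and fell by 0.37 on the same scale (adjusted p = 0.00259). The largest falls of the block on this scale were those of VH5-9 (−0.77) and VH2-9-1 (−0.58). VH5-4 and VH2-9-1 passed in each of the 6 fits that leave out a library, VH5-2 and VH5-9 in 5, VH2-2 and VH5-12 in 3 and VH2-6 in 1.

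By family, the retained VH genes shifted toward some small families of the middle block. As share of the retained genes, VH6 went from 2.43%, 2.16% and 2.73% to 3.36%, 3.86% and 3.45%, a ratio of 1.46. VH13 rose in the ratio 1.43, VH10 in the ratio 1.30 and VH12 in the ratio 1.30, each with the lowest P4V library above the highest wild type library. VH1, whose retained members lie mainly above and directly below the deletion, went from 27.2%, 27.8% and 28.1% to 30.3%, 30.8% and 31.1%, a ratio of 1.11. VH11 had a ratio of 1.15. Lower shares were found for VH15 (ratio 0.590), VH14 (0.705), VH8 (0.816), VH5 (0.824) and VH2 (0.829). VH14 made up 2.57%, 2.49% and 2.88% in wild type and 1.92%, 1.69% and 1.99% in P4V/P4V. VH5 made up 22.3%, 22.8% and 20.3% against 19.2%, 17.9% and 16.8%. In all of these families the genotypes did not overlap and the exact permutation test gave p = 0.1, the smallest possible, with an adjusted p = 0.136 over the families. VH3, VH4, VH7 and VH9 overlapped between genotypes, with ratios between 0.952 and 1.04. Without the third wild type library VH3 no longer overlapped, with a ratio of 1.08. The shifts of VH6, VH10 and VH14 were also seen in the other alleles with the deletion, P4/P4 being set against the wild type of the P4V set. Median log2 changes of the tested genes follow for P4V/P4V, P4/P4 and Δ890/Δ890 in this order. They were 0.40, 0.58 and 0.52 for VH6, 0.40, 0.51 and 0.65 for VH10, and −0.52, −0.37 and −0.44 for VH14. For VH1 they were −0.01, −0.22 and −0.64. Family and position cannot be told apart here: the genes of VH3, VH4 and VH7 to VH15 outside the deletion all lie in the middle block, all 11 VH2 genes are proximal, and 20 of 21 VH5 genes are proximal. VH16 has a single gene outside the deletion, at most 0.0235% of the retained usage, and its family sum was not tested; as a single gene it did not pass (log2 change −0.26 on this scale, adjusted p = 0.765).

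**Figure D5:**
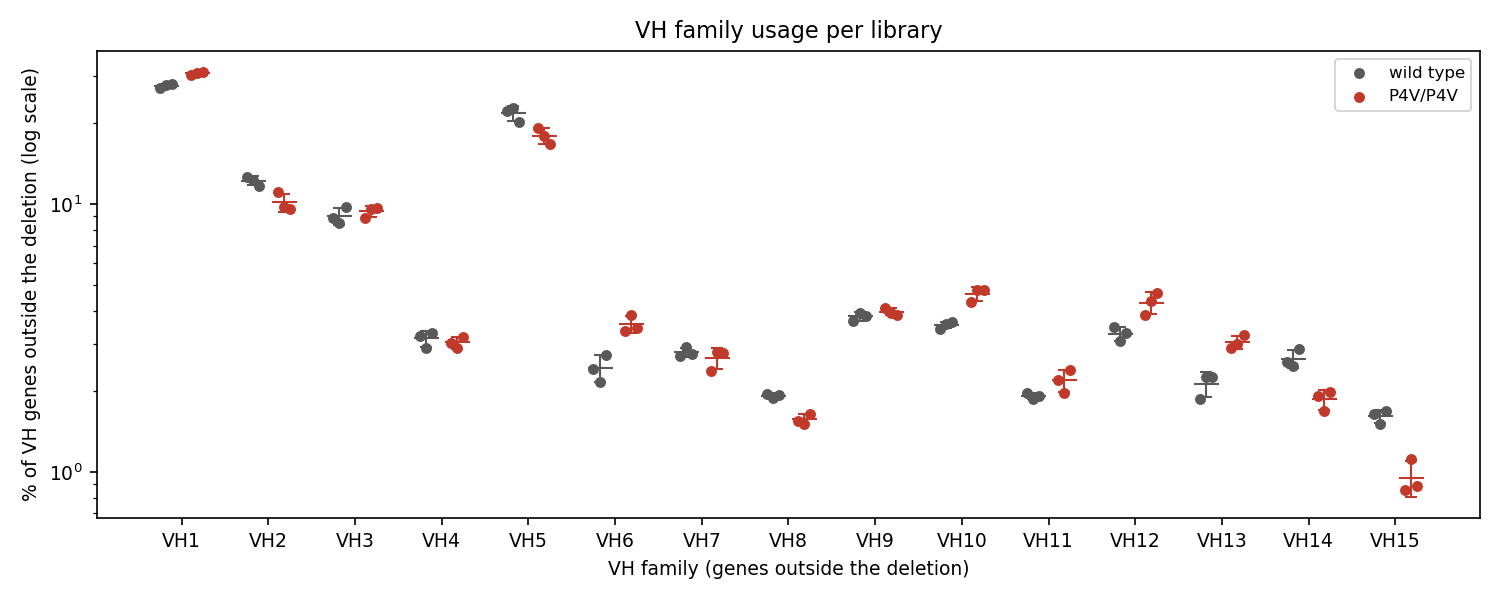
Share of the retained VH genes taken by each VH family (y axis, percent, log scale) in wild type and P4V/P4V pro-B cells. Points are libraries (n = 3 per genotype) and bars show the mean ± SD. VH6, VH10, VH12 and VH13 stand higher and VH14 and VH15 lower in every P4V library.

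The change followed no single direction with distance from the insertion. In the first 100 kb below the deleted genes (10 genes), the share of the retained genes was 2.73% ± 0.22 (SD, n = 3) in wild type and 1.85% ± 0.16 in P4V/P4V, and from 100 to 200 kb (11 genes) it was 2.19% ± 0.05 and 1.71% ± 0.06. From 200 to 300 kb the values were 6.76% ± 0.26 and 6.92% ± 0.39. The 18 genes at 500 to 700 kb formed the only bin below the insertion in which every P4V library was above every wild type library, with 13.6% ± 0.37 against 17.1% ± 1.1. The 18 genes at 1300 to 1500 kb, next to the D segments, took 27.2% ± 1.8 in wild type and 21.9% ± 2.2 in P4V/P4V. In the bins from 700 to 1300 kb the ranges of the genotypes overlapped. These bins are given as a description, without a test.

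The P4V allele lacks the deleted genes, so a lower number of VH genes over the whole VDJH repertoire was set by the genotype. The values outside the deletion are free of this. The effective number of VH genes, the exponential of the Shannon entropy of their shares, was 87.2, 86.5 and 91.2 in wild type and 62.9, 64.5 and 64.0 in P4V/P4V (exact permutation p = 0.1). Over the genes outside the deletion it was 54.3, 53.7 and 57.4 against 55.3, 56.4 and 56.6, with groups that overlapped through the third wild type library (exact permutation p = 0.4, and 0.1 without it, ratio 1.04). Between 171 and 175 VH names were above 0 in the wild type libraries and 139 or 140 in the P4V libraries. Outside the deletion the counts were 95 to 97 and 93 to 95. The 10 most used retained genes took a mean of 38.7% of the retained usage in wild type and 38.3% in P4V/P4V.

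To see what the inserted module changed on the deleted allele, the change in P4V/P4V against its wild type was set against the change in Δ890/Δ890 against the wild type of the Δ890 set, by an interaction term in limma. As percent of all joints, 12 of 89 genes (13.5%) had a higher change in P4V/P4V and none a lower one, while 25 had an unadjusted p under 0.05. All 6 genes tested above the deletion were among the 12, with differences of 1.88 for VH1-80 (SE 0.30) to 2.80 for VH1-82 (SE 0.28, adjusted p = 9.09e-21). VH1-81 took 0.181%, 0.233% and 0.207% of joints in Δ890/Δ890 and 0.505%, 0.430% and 0.416% in its wild type, so the gene was below wild type on the deleted allele and above it on the P4V allele (difference 2.16, SE 0.26). The block above the deletion made up 1.65%, 2.03% and 1.56% of the retained genes in Δ890/Δ890 against 4.26%, 4.15% and 3.88% in its wild type.

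Below the insertion, 5 of 27 genes had a higher change in P4V/P4V than in Δ890/Δ890, VH1-42, VH1-39, VH1-36, VH1-31 and VH1-26. Over all 89 genes the median difference on this scale was 0.33, with 77 above 0. VH1-42, VH1-39 and VH1-36 also passed on the retained scale, where the median over all genes was 0.09, and VH1-31 (adjusted p = 0.109) and VH1-26 (adjusted p = 0.0632) did not. The difference was 1.51 for VH1-42, 1.57 for VH1-39 and 1.70 for VH1-36. VH1-39 took 0.0812%, 0.115% and 0.0695% of joints in Δ890/Δ890 and 0.304%, 0.297% and 0.343% in its wild type. VH1-47 did not pass (difference 0.58, SE 0.28, adjusted p = 0.146), and it fell in Δ890/Δ890 as well, by 1.497 on the log2 scale (adjusted p = 2.17e-12, in a comparison where 53.9% of the genes passed). None of 38 middle genes passed in the interaction as percent of all joints, with 1 at an unadjusted p under 0.05. With the summed VH percent as the base, where 14 of 92 genes (15.2%) passed, 9 higher (9.78%) and 5 lower (5.43%), VH10-1 had a lower change in P4V/P4V (difference −0.41, SE 0.14, adjusted p = 0.0465), and the other 4 lower genes were proximal. For VH12-3 the difference in change was 0.28 (SE 0.20) as percent of all joints and −0.01 (SE 0.14) among the retained genes. On the retained scale, where 48.9% passed in Δ890/Δ890, VH12-3 rose by 0.46 in Δ890/Δ890 against 0.45 in P4V/P4V, VH10-3 by 0.63 against 0.51 and VH13-2 by 0.58 against 0.52. VH15-2 fell by 0.99 in Δ890/Δ890 and by 0.76 in P4V/P4V (adjusted p of the difference = 0.532). The share of the genes 500 to 700 kb below the deletion was 1.28 times that of wild type in Δ890/Δ890 and 1.26 times in P4V/P4V.

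On the proximal side the comparison with Δ890 depended on the scale. Of 18 proximal genes, 1 had a higher change in P4V/P4V as percent of all joints, VH5-9-1 (difference 0.93, adjusted p = 0.027). On the retained scale, where 13 of 94 (13.8%) passed and 9 (9.57%) had a higher change, the 4 with a lower change in P4V/P4V (4.26%) were all proximal: VH2-3, VH5-2, VH2-2 and VH5-4, with differences of −0.58, −0.52, −0.50 and −0.46. The proximal block took 34.6%, 28.5% and 30.2% of the retained genes in Δ890/Δ890 and 32.8%, 29.2% and 30.1% in its wild type, with overlapping groups. The 2 mutant alleles were measured in separate sets of libraries, each against its own wild type.

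P4V/P4V was then compared directly with P4/P4, in which the module has PAIR4 without VH8-7 and V8.7E. As percent of all joints, 7 of 87 genes (8.05%) passed, 6 higher (6.9%) and 1 lower (1.15%) in P4V/P4V. Of the 6 genes above the deletion, 5 were higher. VH1-83 took 0.0624%, 0.0488% and 0.0688% of joints in P4/P4 and differed most (log2 difference 1.34, SE 0.23, adjusted p = 1.5e-05). VH1-82 had 0.379%, 0.357% and 0.297% in P4/P4 (difference 1.13, adjusted p = 2.39e-10), and VH1-81 had 0.517%, 0.541% and 0.538% (difference 0.90, adjusted p = 4.03e-09). The values of VH1-81 in P4/P4 thus lay between those of Δ890/Δ890 and P4V/P4V. VH1-84 and VH1-85 were higher by 1.07 and 0.78. VH1-80, the gene next to the insertion, differed by 0.19 and did not pass, with 0.321%, 0.291% and 0.252% in P4/P4.

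Below the insertion VH1-39 was the only one of 25 genes that passed between P4V/P4V and P4/P4, with 0.181%, 0.140% and 0.135% of joints in P4/P4 (difference 0.67, adjusted p = 0.00565). VH11-1 in the middle block was lower in P4V/P4V, with 0.193%, 0.205% and 0.257% against 0.298%, 0.356% and 0.288% in P4/P4 (difference −0.51, adjusted p = 0.0215). No proximal gene passed as percent of all joints, where 1 had an unadjusted p under 0.05 in limma. On the retained scale, 9 of 92 (9.78%) passed, 6 higher (6.52%) and 3 lower (3.26%), with the same counts as share of the summed VH percent, and VH5-4 (−0.29) and VH4-2 (−0.34) were then lower too. Without the third P4V library 4 genes passed on this scale. The block above the deletion made up 4.49%, 4.19% and 4.39% of the retained genes in P4/P4, near the 4.26% to 4.36% of wild type and below the 7.56% to 8.11% of P4V/P4V.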

How the data were processed

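VDJ-seq was performed on genomic DNA: sheared DNA was ligated to adapters with unique molecular identifiers (UMIs), joints were captured by primer extension from JH segments, and paired-end reads were collapsed by UMI. Per the study's methods, the deposited values were made by the authors as the percent of unique VDJH and DJH sequences that used each VH gene, and counts were not given, so depth is unknown and no counting interval could be formed. The submitters' processing notes name mm9 and mm10 without roles.

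From these percents the 3 scales, block and family sums were computed. Genes were tested with limma 3.58.1 in R 4.3.3 (lmFit, eBayes with trend) on log2(usage + 0.01), which understates changes of low genes, with a minimum mean of 0.01% and Benjamini-Hochberg adjusted p under 0.05. As percent of all joints the prior degrees of freedom were infinite, so each gene took the spread of the trend. Single values were compared by two-sided exact permutation tests (3 against 3, smallest p = 0.1). The limma steps were tested on simulated data. The 56 VH names without a position were summed and entered a test only in an alternative. Among the 15 libraries used, none of 105 pairs held identical values. Named genes were those flanking the insertion, VH8-7, the 3 most used of each block, and up to 6 of the largest rises and falls per scale that passed without overlap; further genes were named because they passed or because of a comparison with another allele, after their values were seen. Members and lists were chosen with earlier results of these data known. The other VDJ-seq files and the RNA-seq and ChIP-seq files of the series were not used here.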

Additional observations from a re-analysis of the deposited data

How the results depend on the processing

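Adding the 3 wild type libraries of the Δ890 set to the controls (6 against 3 libraries, smallest exact permutation p = 0.0119) moved sums past the threshold with the direction kept, in a test that ignores the set a library belongs to. As percent of all joints the ratios, P4V/P4V to wild type, were then 0.79965 for the summed VH percent, 1.90 for the block above the deletion, which is also the sum of the 6 genes flanking above, and 0.652 for the 6 flanking genes below. As share of the summed VH percent they were 2.38 above, 0.813 for the 6 genes below, 1.33 for the middle block, 1.23 for the block below, 1.40 for VH1, 1.28 for VH3, 1.19 for VH4, 1.76 for VH6, 1.18 for VH7, 1.36 for VH9, 1.68 for VH10, 1.36 for VH11, 1.58 for VH12 and 1.76 for VH13. On the retained scale they were 1.85 above, 0.634 for the 6 genes below, 1.09 for VH1, 1.37 for VH6, 0.721 for VH8, 1.31 for VH10, 1.23 for VH12, 1.37 for VH13, 0.726 for VH14 and 0.625 for VH15, and the effective number of all VH genes had a ratio of 0.708. The fall in the effective number of all VH genes was set by the genes the allele lacks. The ratio changed side in 4 uncalled sums: 0.981 for the block below (percent of all joints), 0.925 for VH8 (share of the summed VH percent), and 0.999 for VH3 and 0.989 for the effective number among the retained genes.

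As percent of all joints, 14 calls became 25 with the added controls (15 higher, 10 lower), 26 with array weights (22 higher, 4 lower) and 33 among the retained genes (17 higher, 16 lower), where omitting the trend gave 19 (13 higher, 6 lower). P4V/P4V against P4/P4 had 9 calls among the retained genes and 5 without the trend. The estimates of 4 genes changed sign on scales where they did not pass: with added controls VH1-37 stood at −0.30, −0.12 and −0.41 on the 3 scales, VH1-11 at −0.088 as percent of all joints and VH5-4 at 0.19 as share of the summed VH percent. VH1-37 stood at −0.0099 with array weights among the retained genes, and VH1-43 at 0.0249 with a pseudocount of 0.1 as share of the summed VH percent. The cause was not tested.

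Leaving out 1 library in turn gave 3 to 23 calls as percent of all joints and 20 to 30 among the retained genes. For P4V/P4V against P4/P4 only the P4V libraries were left out in turn. The counts there were 4 to 11 (share of the summed VH percent) and 4 to 12 (retained genes). Ratios that crossed 1, none of them called, ranged from 0.950 to 1.12 for the block below, 0.972 to 1.24 for VH3, 0.900 to 1.13 for VH4 and 0.936 to 1.08 for VH7 as percent of all joints, from 0.926 to 1.00 for VH7 among the retained genes, and from 0.890 to 1.02 for VH8-7 as share of the summed VH percent. Log2 changes that crossed 0 ranged, as percent of all joints, from −0.25 to 0.0387 for VH1-42, −0.12 to 0.31 for VH1-37 and −0.0709 to 0.20 for VH1-11. As share of the summed VH percent they ranged from −0.31 to 0.48 for VH1-43, −0.29 to 0.18 for VH1-36, −0.0773 to 0.0641 for VH5-2, −0.0175 to 0.13 for VH2-2 and −0.11 to 0.0335 for VH5-4. For the retained genes they ranged from −0.93 to 0.30 for VH1-43, −0.18 to 0.33 for VH1-37 and −0.0346 to 0.0109 for VH1-11.

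No paired analysis was possible because the labels carry no replicate numbers. Testing the VH names without a position along with the others, and all alternatives among the retained genes beyond the scale itself, were chosen after seeing the data. With 3 libraries a group no permutation test can reach 0.05, and the depth of the libraries is unknown.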

Other observations

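The 56 VH names without a RefSeq position took 1.57%, 1.39% and 1.88% of all joints in wild type and 1.35%, 1.37% and 1.27% in P4V/P4V pro-B cells. VH1-87 was the most used of them, with 0.462%, 0.378% and 0.607% in wild type and 0.509%, 0.456% and 0.434% in P4V/P4V, and its groups overlapped. In contrast, 5 of these names, VH1S5, VH1S15, VH1S40, VH1S56 and VH1S126, were used in all 3 wild type libraries and in no P4V library, as were 18 of the placed deleted genes.

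Pseudogene segments outside the deletion together made up 7.99%, 8.03% and 8.49% of the retained usage in wild type and 7.29%, 6.88% and 7.73% in P4V/P4V, without overlap. In the middle block alone they made up 6.05%, 5.85% and 6.45% against 5.53%, 5.64% and 6.28%, and the groups overlapped.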
